A study of Homo sapiens with 6 samples.

Results

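Genes of glycolysis and of the response to low oxygen were examined in MCF10A cells depleted of PAX9. MCF10A is an established, non-tumorigenic line of human breast epithelial cells, and PAX9 is a paired box transcription factor. The genes were listed by name for their textbook roles in glycolysis, its regulation and the hypoxia response, by a rule that uses no measured value, although earlier results of these data were known when the list was made. The list holds 34 symbols for 33 genes, since PKM and PKM2 name the same gene, and all 33 genes were found among the 26822 symbols of the deposited table. Cells received 30 nM of a non-targeting siRNA (siNT) or of siRNAs against PAX9 (siPAX9), and RNA was taken after 72 hours from 3 samples of each group. Both groups grew in the same medium, which contained insulin and epidermal growth factor, and no low-oxygen treatment is described for either. The table gives 1 FPKM per locus for each group (fragments scaled by transcript length and by the mapped fragments of the library), pooled by the authors over the 3 samples. No value per sample was used here, so no SD, no test and no p-value could be given, and each comparison below sets 1 pooled value beside another. Coordinates are those of UCSC hg19 unless another build is named.

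Cells take up glucose through transporters of the SLC2A family and break it down to pyruvate by the enzymes of glycolysis. Pyruvate is then reduced to lactate and exported, or is passed to the mitochondria. When oxygen is low, the transcription factors HIF1A and EPAS1 escape degradation and raise transcription of many glycolytic genes, together with genes for blood vessel growth, pH control, mitochondrial turnover and collagen modification. Several of these genes, such as CA9 and EGLN3, are widely used as markers of hypoxia, and the glycolytic genes are among the most abundant mRNAs of proliferating epithelial cells.

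The mRNA of PAX9 itself (chromosome 14, at a locus shared with SLC25A21) stood at 2.80 FPKM in siNT and 0.325 FPKM in siPAX9, a log2 ratio of -3.10. With 1 added to each FPKM, a setting that weighs low values down, the log2 ratio of PAX9 was -1.52. The mean of PAX9 is at least 1 FPKM only through siNT, so the size of its ratio cannot be read. All 10 genes listed as markers of basal breast epithelium were expressed, with a summed level of 4137 FPKM in siNT and 5469 FPKM in siPAX9. KRT6A accounted for the largest part of that difference, at 368 FPKM in siNT and 959 FPKM in siPAX9, while TP63, EGFR and ITGB4 were lower in siPAX9. CDH1, which is on that list but is not particular to basal cells, was at 45.3 FPKM in siNT and 124 FPKM in siPAX9. Of 7 luminal markers 4 were expressed, and the list summed to 271 FPKM in siNT and 188 FPKM in siPAX9. KRT18 alone carried that lower sum, at 212 FPKM in siNT and 119 FPKM in siPAX9, while KRT8, GATA3 and FOXA1 were higher in siPAX9. Of the fibroblast, endothelial and immune markers, 2 of 6, 2 of 4 and 1 of 5 had a mean of at least 1 FPKM. The endothelial markers summed to 3.38 FPKM in siNT and 2.46 FPKM in siPAX9. PECAM1 was lower and KDR higher in siPAX9, and each met that minimum through 1 group only. The fibroblast markers summed to 6.40 FPKM in siNT and 42.2 FPKM in siPAX9, most of it DCN, while COL3A1 was listed at 0 in both groups. The immune markers summed to 14.5 FPKM in siNT and 56.7 FPKM in siPAX9, almost all of it CD14, while CD3E was listed at 0 in both groups. The part of these genes in the values below was not tested. In bulk RNA, fewer cells of a type and less RNA per cell cannot be told apart.

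A symbol was taken as expressed when the mean of its 2 group values was at least 1 FPKM, which 13264 symbols and 31 of the 33 members met. The members below it were ENO2 and SLC2A3. Changes are given as log2 of the FPKM in siPAX9 over that in siNT, and a gene was counted as lower or higher when this ratio was at least 2-fold. Of the 31 members, 2 were at least 2-fold lower in siPAX9, where 6.9% of all expressed symbols were. Only 1 of the 31 members was at least 2-fold higher, where 6.82% of all expressed symbols were. The genes past 2-fold were CA9 and ALDOC on the lower side and ADM on the higher side. A ratio below 0 was found for 22 of the 31 members, and for 55.3% of all expressed symbols. At a ratio of at least 1.5-fold, 7 members were lower against 16.7% of all expressed symbols, and 1 member was higher against 13.7% of them. The median log2 ratio of the members was -0.19, and that of all expressed symbols was -0.07.

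**Figure D1:**
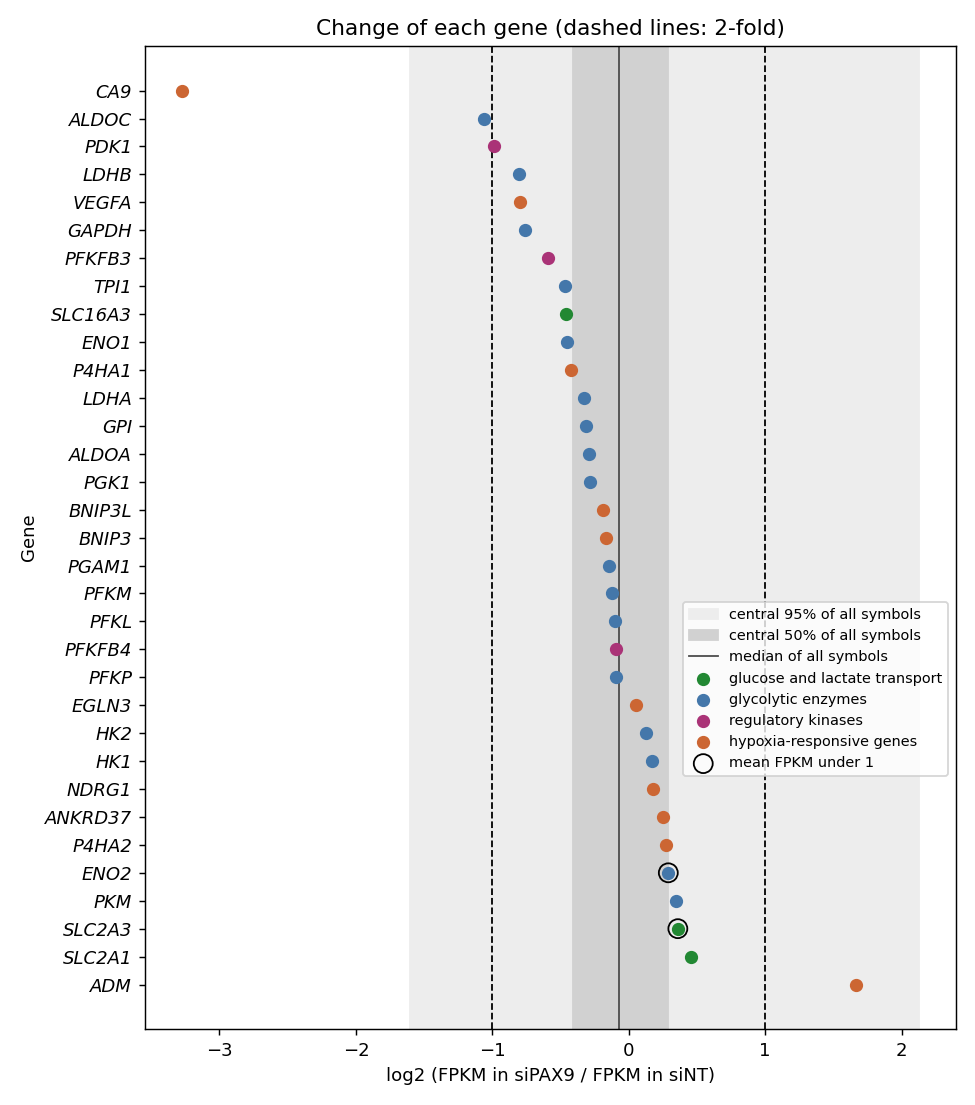
The log2 ratio of FPKM in siPAX9 over siNT (horizontal axis) is plotted for each of the 33 genes (vertical axis), coloured by role, over the central 50% and 95% of all expressed symbols; circles mark the genes with a mean under 1 FPKM. CA9, at -3.28, lies outside the central 95% of all symbols, and ALDOC and ADM are the other genes past the dashed 2-fold lines.

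CA9 had the largest ratio in either direction among the members. It encodes carbonic anhydrase IX, a membrane enzyme that helps to control pH outside the cell. Its locus (chromosome 9, 35673915 to 35681154) was listed at 12.9 FPKM in siNT and 1.33 FPKM in siPAX9. The level in siPAX9 was thus 9.69-fold lower, a log2 ratio of -3.28, and 0.648% of all expressed symbols had a lower ratio. With 1 added to each FPKM the log2 ratio of CA9 was -2.57. ADM was the gene with the opposite direction. It encodes adrenomedullin, a secreted vasodilator peptide (chromosome 11, 10326527 to 10328949). Its level was 2.06 FPKM in siNT and 6.52 FPKM in siPAX9, which is 3.17-fold higher and a log2 ratio of 1.66. Both genes are classed as hypoxia-responsive. The ratio of CA9 rests on a small FPKM in siPAX9, and that of ADM on a small FPKM in siNT.

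ALDOC and PDK1 lay on either side of the 2-fold threshold. ALDOC encodes aldolase C, the less abundant aldolase here (chromosome 17, 26900133 to 26903951). It was at 10.6 FPKM in siNT and 5.11 FPKM in siPAX9, a log2 ratio of -1.06. After subtraction of the median of all symbols it was -0.99, and with 1 added to each FPKM it was -0.93, so the gene was no longer past 2-fold under either. PDK1 encodes a pyruvate dehydrogenase kinase that holds pyruvate back from the mitochondria (chromosome 2, 173420101 to 173490351). It was at 10.6 FPKM in siNT and 5.33 FPKM in siPAX9, a log2 ratio of -0.99. The values of these 2 genes were nearly equal, and without replicate values no difference between them can be read.

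The promoters of these genes were inspected for the letters at which hypoxia-inducible factors bind DNA, because all are counted among the targets of that pathway and they did not share a direction. The first set of letters searched was ACGTG, on both strands, in the 250 bases before each start in the RefSeq promoter table (GRCh38.p14). The second set was GCGTG. The E-box that MYC and other factors bind is CACGTG, so every E-box also counts as a match of the first set. The sequences below run 5′ to 3′ along the gene, end at the base before the start, and show both sets and their reverse complements in capitals. BNIP3 was added because its window holds more such positions than those of the other 4 genes, at a log2 ratio of only -0.16.
CA9, chr9:35673678-35673927, plus strand: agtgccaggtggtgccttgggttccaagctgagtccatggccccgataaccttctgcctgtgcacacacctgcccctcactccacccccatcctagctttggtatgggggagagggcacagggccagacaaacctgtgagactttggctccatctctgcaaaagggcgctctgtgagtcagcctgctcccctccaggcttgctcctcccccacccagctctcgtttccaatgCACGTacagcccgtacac
ADM, chr11:10304823-10305072, plus strand: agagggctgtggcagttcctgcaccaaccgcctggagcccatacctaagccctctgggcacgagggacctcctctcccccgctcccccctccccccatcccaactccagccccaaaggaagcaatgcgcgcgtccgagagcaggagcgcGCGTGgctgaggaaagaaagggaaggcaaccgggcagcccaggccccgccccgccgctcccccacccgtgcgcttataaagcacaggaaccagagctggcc
ALDOC, chr17:28576896-28577145, minus strand: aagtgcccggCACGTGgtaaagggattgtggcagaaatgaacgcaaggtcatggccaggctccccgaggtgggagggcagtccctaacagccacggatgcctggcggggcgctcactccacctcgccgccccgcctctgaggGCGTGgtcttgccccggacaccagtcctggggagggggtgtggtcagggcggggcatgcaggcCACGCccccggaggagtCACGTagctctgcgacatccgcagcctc
PDK1, chr2:172555840-172556089, plus strand: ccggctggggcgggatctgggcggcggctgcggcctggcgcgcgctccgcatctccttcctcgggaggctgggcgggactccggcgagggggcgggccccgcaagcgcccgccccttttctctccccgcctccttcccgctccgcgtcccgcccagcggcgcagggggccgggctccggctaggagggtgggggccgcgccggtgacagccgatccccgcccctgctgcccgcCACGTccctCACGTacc
BNIP3, chr10:131981924-131982173, minus strand: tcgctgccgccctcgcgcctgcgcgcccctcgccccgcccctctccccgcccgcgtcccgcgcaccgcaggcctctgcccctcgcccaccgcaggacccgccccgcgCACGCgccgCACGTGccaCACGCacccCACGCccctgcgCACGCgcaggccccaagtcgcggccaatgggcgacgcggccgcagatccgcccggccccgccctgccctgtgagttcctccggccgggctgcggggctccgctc

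The CA9 window held 1 position, 18 bases before the start, and the ADM window 1 position, 101 bases before the start. ALDOC held 5 positions, the PDK1 window shown held 2 and BNIP3 held 6. An E-box matches on both strands and was counted as 2 positions, and the ALDOC and BNIP3 windows each hold an E-box. The other RefSeq window of PDK1 held none. The position in CA9 belongs to ACGTG and the one in ADM to GCGTG. Both sets are letters at which hypoxia-inducible factors bind, and they differ only at the first base. Each of these 2 windows thus held 1 such position. The ADM window held no ACGTG, and the CA9 window held no GCGTG.

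RefSeq windows were matched for 29 of the 33 members, 55 windows in all, since some genes have several starts. VEGFA, NDRG1, BNIP3L and SLC2A3 had no window and are left out of the counts below. ACGTG was present in 21 of the 55 windows (38.2%), and in 18.5% of all 35116 windows of the table. All windows include those of genes that were not expressed, and of the expressed symbols with a window 29.0% had ACGTG. The E-box CACGTG was present in 8 of the 55 windows (14.5%), against 6.34% of all windows. GCGTG was present in 16 of the 55 windows (29.1%), against 32.2% of all windows. Among the expressed members, 17 had ACGTG in at least 1 window, and their median log2 ratio was -0.33, with 15 below 0. The other 11 had a median of 0.06, with 5 below 0. For GCGTG the medians of the split were alike, with a median of -0.22 and 11 of 14 below 0 where it was present, and a median of -0.22 and 9 of 14 below 0 where it was not. Over all expressed symbols with a window, 58.8% of the 2749 with ACGTG and 55.5% of the 6731 without it were below 0. For GCGTG these shares were 58.5% with it and 54.1% without it, so over all symbols both sets of letters went with a slightly larger share below 0. Members with ACGTG had a median of 2 windows and those without it a median of 1, so the former had more sequence to search. These counts describe letters and no binding was measured.

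The glycolytic enzymes made up the bulk of the signal. Of the 17 enzyme genes 16 were expressed, and 13 of the 16 had a ratio below 0, but only ALDOC passed 2-fold. The ratios ranged from -1.06 to 0.34 on the log2 scale, and their median was -0.29. Summed over the 16 genes the level was 6378 FPKM in siNT and 4777 FPKM in siPAX9, a log2 ratio of -0.42. Most abundant mRNAs of any kind were also lower in siPAX9. Among all 711 symbols with a mean of at least 100 FPKM, 72.2% had a ratio below 0, and the median was -0.34 on the log2 scale. The 10 members in that band had a median of -0.39, and 8 of them were lower. Between 10 and 100 FPKM, the median was -0.11 for all 6354 symbols and -0.13 for the 14 members. At these levels the members thus lay close to other genes of similar abundance.

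**Figure D2:**
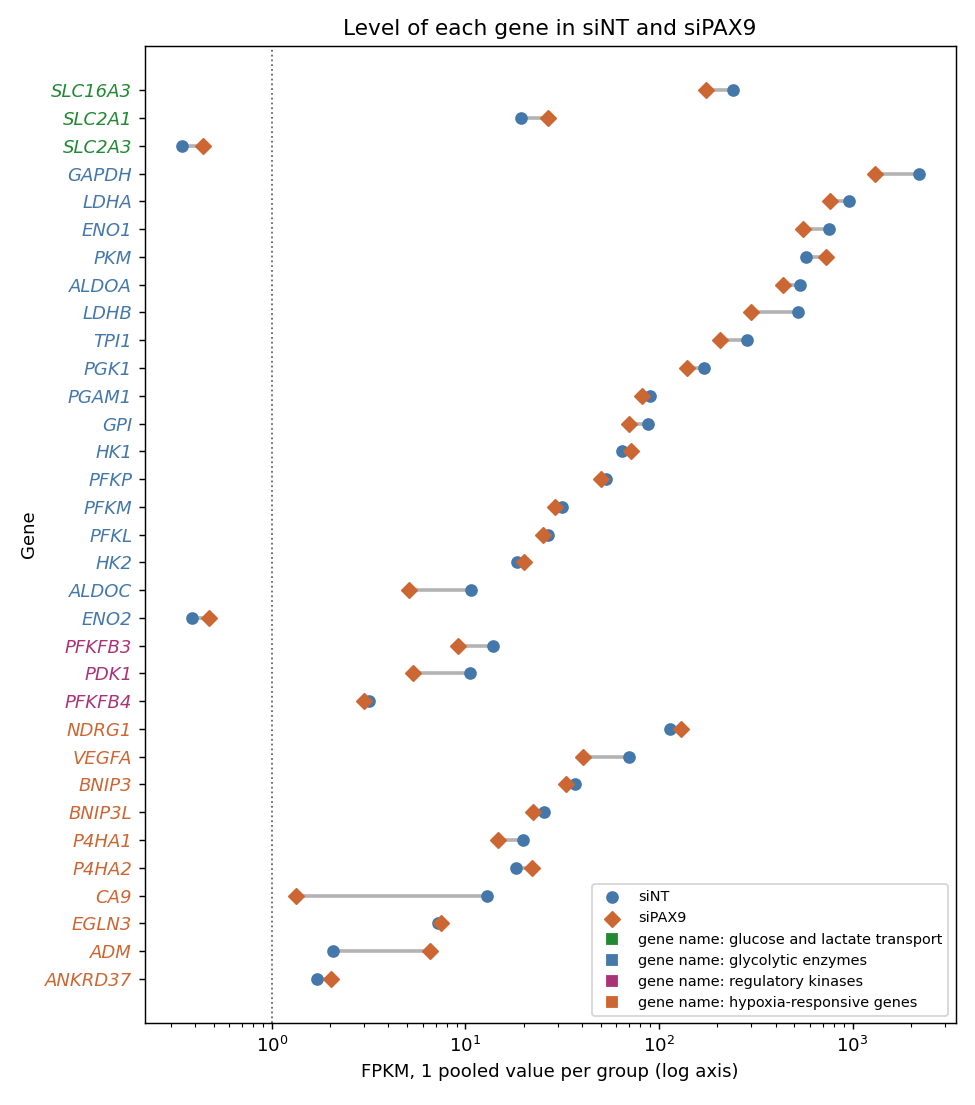
Level of each of the 33 genes in siNT (circles) and siPAX9 (diamonds) as 1 pooled FPKM per group on a log axis, ordered by role and by level in siNT; the dotted line marks 1 FPKM. The levels span from 0.342 FPKM for SLC2A3 to 2196 FPKM for GAPDH in siNT, and the longest connecting lines belong to CA9 and ADM.

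GAPDH, the dehydrogenase that makes NADH from glyceraldehyde-3-phosphate, was the most abundant member in both groups. It was listed at 2196 FPKM in siNT and 1299 FPKM in siPAX9 (chromosome 12, 6643571 to 6647541), a log2 ratio of -0.76. The value in siPAX9 minus that in siNT was -897 FPKM, the largest difference of any member on the linear scale. LDHB, the lactate dehydrogenase chain that is most common in oxidative tissue, was at 520 FPKM in siNT and 298 FPKM in siPAX9 (chromosome 12, 21788276 to 21810789). Its log2 ratio was -0.80, the lowest of the enzymes after ALDOC. LDHA, the chain that predominates in glycolytic cells, was at 964 FPKM in siNT and 766 FPKM in siPAX9, a log2 ratio of -0.33. LDHA therefore made up 64.9% of the 2 chains in siNT and 72.0% in siPAX9, compared as FPKM, which are per length.

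PKM went the other way from its neighbours in the pathway. It encodes the muscle-type pyruvate kinases, which make pyruvate and ATP in the last step before lactate dehydrogenase. Its locus (chromosome 15, 72491254 to 72523965) was at 573 FPKM in siNT and 728 FPKM in siPAX9, a log2 ratio of 0.34. PKM moved from rank 4 among the members in siNT to rank 3 in siPAX9, passing ENO1. ENO1, the ubiquitous enolase, was at 755 FPKM in siNT and 552 FPKM in siPAX9, a log2 ratio of -0.45. The splice forms PKM1 and PKM2 could not be told apart, since the table has 1 row for the gene.

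Apart from ALDOC, the enzymes from the hexokinases to the aldolases differed by less than 1.5-fold. Hexokinases trap glucose in the cell as glucose-6-phosphate. HK1 was at 64.0 FPKM in siNT and 72.0 FPKM in siPAX9, and HK2, the inducible form, was at 18.5 and 20.2 FPKM. HK2 made up 22.4% of both together in siNT and 21.9% in siPAX9, so the makeup of this step barely differed. The next enzyme, GPI, was at 87.3 FPKM in siNT and 70.3 FPKM in siPAX9, a log2 ratio of -0.31. The 3 phosphofructokinases, which catalyse the committed step, had log2 ratios of -0.10 for PFKL, -0.13 for PFKM and -0.09 for PFKP. PFKP supplied 47.7% of their summed FPKM in siNT and 48.0% in siPAX9. ALDOA, the main aldolase, was at 533 FPKM in siNT and 436 FPKM in siPAX9, a log2 ratio of -0.29. ALDOC supplied 1.95% of the summed aldolase FPKM in siNT and 1.16% in siPAX9.

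Of the single-gene steps, TPI1, which interconverts the triose phosphates, was at 284 FPKM in siNT and 206 FPKM in siPAX9, a log2 ratio of -0.46. PGK1, the first ATP-yielding enzyme of the pathway, was at 170 FPKM in siNT and 140.2 FPKM in siPAX9, a log2 ratio of -0.28. PGAM1, which moves the phosphate group of phosphoglycerate, was at 90.2 FPKM in siNT and 81.6 FPKM in siPAX9, a log2 ratio of -0.14. Each of these 3 genes was lower in siPAX9 by less than 1.5-fold. ENO2, the neuronal enolase, was at 0.387 FPKM in siNT and 0.473 FPKM in siPAX9, too low to be read.

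**Figure D3:**
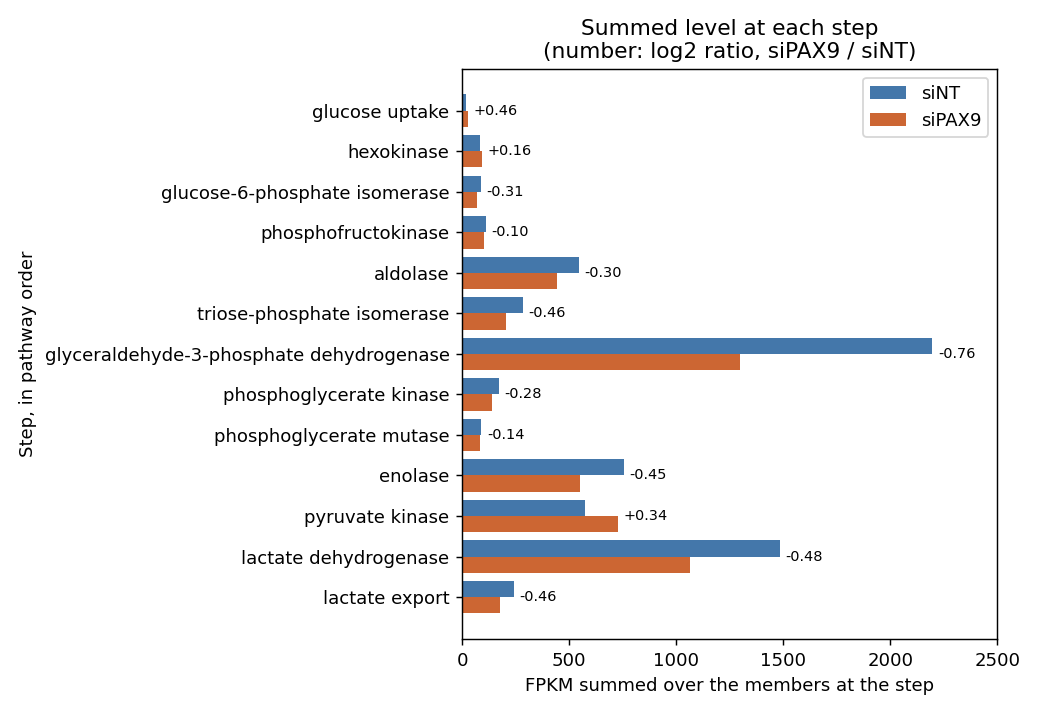
Level at each step in pathway order as the FPKM summed over the members at that step, for siNT and siPAX9, with the log2 ratio beside each bar pair. GAPDH and lactate dehydrogenase carry the tallest bars and ratios of -0.76 and -0.48, whereas glucose uptake, hexokinase and pyruvate kinase have ratios above 0.

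At the level of steps, the summed level was lower in siPAX9 at all steps from GPI to enolase. The ratios from hexokinase to aldolase ranged from -0.31 to 0.16, with a median of -0.20 over 4 steps. From triose-phosphate isomerase to lactate dehydrogenase they ranged from -0.76 to 0.34, with a median of -0.45 over 7 steps. The ranges of the earlier and later steps overlapped.

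The transporters at either end of the pathway differed in direction. SLC2A1, the main glucose transporter of most cell lines, was at 19.4 FPKM in siNT and 26.7 FPKM in siPAX9, a log2 ratio of 0.46. SLC16A3, which exports lactate, was at 241 FPKM in siNT and 176 FPKM in siPAX9, a log2 ratio of -0.46. Neither passed 1.5-fold. SLC2A3, a high-affinity glucose transporter, was at 0.342 FPKM in siNT and 0.438 FPKM in siPAX9, so SLC2A1 made up 98.3% of their summed FPKM in siNT.

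The regulatory kinases were all lower in siPAX9, PDK1 most. PFKFB3, which makes the activator of phosphofructokinase, fructose-2,6-bisphosphate, was at 13.8 FPKM in siNT and 9.17 FPKM in siPAX9, a log2 ratio of -0.59. PFKFB4, a related enzyme with the same activities, was at 3.17 FPKM in siNT and 2.97 FPKM in siPAX9, a log2 ratio of -0.09. The median over the 3 kinases was -0.59.

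The hypoxia-responsive members outside glycolysis had no common direction, with 5 lower and 5 higher in siPAX9 and a median log2 ratio of -0.05. VEGFA, the endothelial growth factor, was the second lowest of them after CA9. It was at 70.4 FPKM in siNT and 40.6 FPKM in siPAX9 (chromosome 6, 43737946 to 43754223), a log2 ratio of -0.79. P4HA1 and P4HA2, the catalytic chains of collagen prolyl hydroxylase, went in opposite directions. P4HA1 was at 19.8 FPKM in siNT and 14.8 FPKM in siPAX9, and P4HA2 was at 18.3 and 22.1 FPKM. The share of P4HA1 in the pair was 52.0% in siNT and 40.1% in siPAX9.

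The remaining markers stayed within 1.5-fold. BNIP3 and BNIP3L, receptors for the removal of mitochondria, had log2 ratios of -0.16 and -0.19. NDRG1, a stress-responsive gene of epithelial cells, was the most abundant of this role at 115 FPKM in siNT and 130 FPKM in siPAX9, a log2 ratio of 0.18. EGLN3, an oxygen sensor that is itself induced by hypoxia, was at 7.18 FPKM in siNT and 7.47 FPKM in siPAX9, a log2 ratio of 0.06. ANKRD37, which encodes an ankyrin-repeat protein, was at 1.70 FPKM in siNT and 2.03 FPKM in siPAX9. Thus CA9, VEGFA and ADM differed by more than 1.5-fold, while EGLN3, NDRG1, ANKRD37, BNIP3, BNIP3L, P4HA1 and P4HA2 did not.

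The other genes of these pathways were read from lists written from textbook roles. Of the 12 genes of the hypoxia machinery 11 were expressed, 1 was at least 2-fold lower and 0 were at least 2-fold higher, beside 6.9% and 6.82% of all expressed symbols, and the median log2 ratio was 0.15, beside -0.07. The oxygen-regulated factor HIF1A was at 111 FPKM in siNT and 72.7 FPKM in siPAX9, a log2 ratio of -0.61. EPAS1, its relative, was at 59.9 FPKM in siNT and 86.9 FPKM in siPAX9, a log2 ratio of 0.54. HIF1A and EPAS1 thus differed in opposite directions, each by less than VEGFA. The gene past 2-fold was ARNT2, a partner of these factors, at 4.23 FPKM in siNT and 0.428 FPKM in siPAX9. It met the minimum of 1 FPKM only through siNT, so the size of its ratio cannot be read. ARNT, the more abundant partner, was at 12.9 FPKM in siNT and 14.0 FPKM in siPAX9. HIF1A, EPAS1 and ARNT were named after their values were seen.

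Of 38 further hypoxia-responsive genes 34 were expressed, 2 were at least 2-fold lower and 3 were at least 2-fold higher, shares near the 6.9% and 6.82% of all expressed symbols, with a median log2 ratio of -0.03 and 17 below 0. The lower genes were STC2, which encodes a secreted glycoprotein, from 34.1 FPKM in siNT to 9.19 FPKM in siPAX9, and LOX, which cross-links collagen, from 39.9 to 13.6 FPKM. The higher genes were TMEM45A (log2 ratio 1.69), PIM1, a serine/threonine kinase (1.40), and KCTD11 (1.24). The hypoxia-responsive members outside glycolysis were divided in the same way, at 5 and 5.

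Of 33 other glycolytic isoenzymes, transporters and regulators 18 were expressed, 1 was at least 2-fold lower and 5 were at least 2-fold higher, beside 6.9% and 6.82% of all expressed symbols. SLC2A5, a fructose transporter, was at 0.215 FPKM in siNT and 5.71 FPKM in siPAX9, so it met the minimum only through siPAX9 and the size of its ratio cannot be read. ARRDC4, an arrestin-like protein that limits glucose uptake, was at 6.37 FPKM in siNT and 21.4 FPKM in siPAX9 (log2 ratio 1.75). SLC2A12, a glucose transporter, had a log2 ratio of 1.51, and PGAM2, the muscle phosphoglycerate mutase, one of 1.32. TIGAR, a phosphatase that lowers fructose-2,6-bisphosphate and was written in the list with an older symbol, was at 8.54 FPKM in siNT and 17.8 FPKM in siPAX9 (log2 ratio 1.06). PCK2, the mitochondrial phosphoenolpyruvate carboxykinase, was lower, at 9.58 FPKM in siNT and 2.21 FPKM in siPAX9 (log2 ratio -2.12).

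In the pentose phosphate pathway, which branches off at glucose-6-phosphate, 0 of 8 genes passed 2-fold, but 7 of the 8 had a ratio below 0, beside 55.3% of all expressed symbols, and the median was -0.47 on the log2 scale, beside -0.07. Of 30 genes for pyruvate entry and the tricarboxylic acid cycle, 1 was at least 2-fold lower and 1 was at least 2-fold higher, below the 6.9% and 6.82% of all expressed symbols, with a median of -0.15. Both were pyruvate dehydrogenase kinases, as is the member PDK1. PDK3 was at 4.01 FPKM in siNT and 1.23 FPKM in siPAX9 (log2 ratio -1.71), and PDK4 was at 7.70 FPKM in siNT and 25.3 FPKM in siPAX9 (log2 ratio 1.71). The kinases of this family thus did not share a direction.

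**Figure D4:**
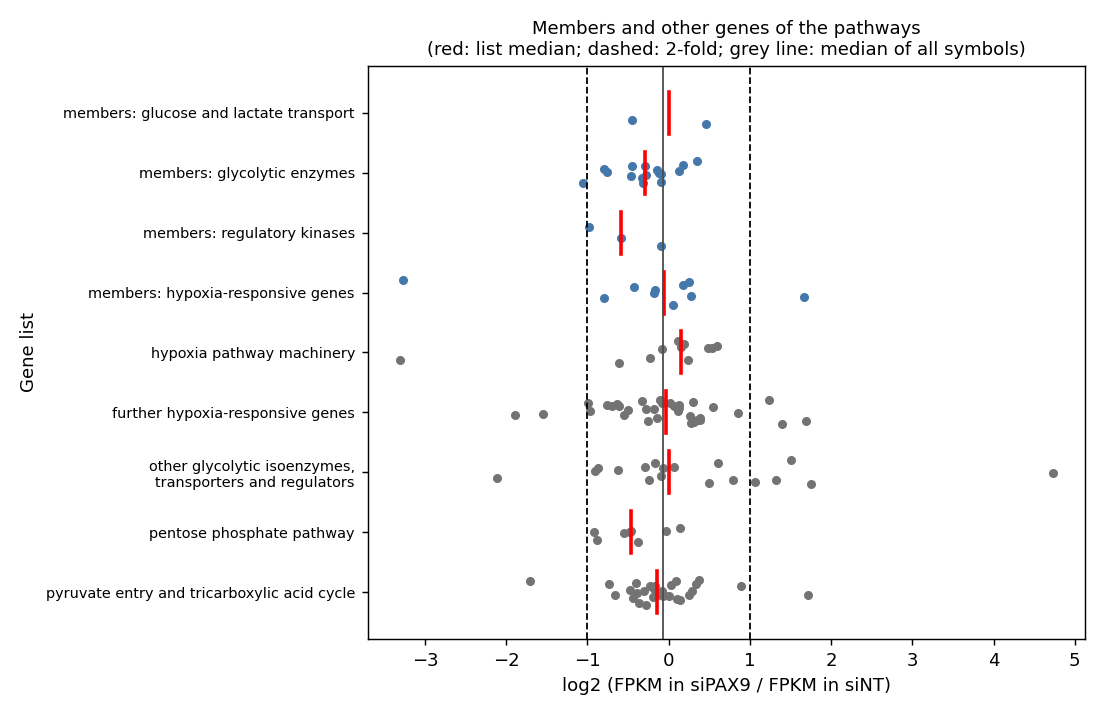
The log2 ratio of FPKM in siPAX9 over siNT for every expressed gene of the members by role (blue) and of the other lists (grey), with list medians in red and the median of all expressed symbols as a grey line. Pentose phosphate genes, with a median of -0.47, and regulatory kinases, with -0.59, lie mostly left of that line, and CA9 and ARNT2 stand far from the other points on the left, ARNT2 with a value under 1 FPKM in siPAX9. SLC2A5 is the farthest point on the right, at 4.73, with a value under 1 FPKM in siNT.

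Several glycolytic genes have intronless copies in the genome, and the deposited table lists short loci without a symbol that match them. Of 7971 such expressed loci searched, 65 matched a transcript of 13 members. Of these, 37 lay in pseudogenes that the GENCODE annotation of GRCh37 names after a member, and they belonged to 10 members. Of the 28 others, 17 matched P4HA2, and 16 of the 28 had the sign of the gene they matched. GAPDH had 11 of these loci, PKM 7 and LDHA 6. Their FPKM could exceed that of the gene, as at a locus of 116 bases in PKMP5 (chromosome 6, 5973418 to 5973533), which was listed at 4713 FPKM in siNT and 6151 FPKM in siPAX9. A locus of 403 bases in the same pseudogene was at 360 FPKM in siNT and 513 FPKM in siPAX9, below the gene. Of the 7 loci of PKM, 3 were above the gene in siNT. Short reads cannot always tell such a copy from the gene, so the levels of these members are uncertain. Among the loci in named pseudogenes, 33 of 37 had the sign of the gene. For GAPDH the ratio was below 0 at 10 of 11 loci, and the median was -0.69 on the log2 scale beside -0.76 for the gene. For PKM 0 of 7 loci were lower, with a median of 0.41 beside 0.34 for the gene. For LDHB the median of 2 loci was -0.80, as for the gene. The exceptions among the 37 were 1 locus each for GAPDH and HK2 and the 2 loci of BNIP3, which lie in BNIP3P1 and stood at 0.00 and 0.43 beside -0.16 for the gene. Outside the named pseudogenes, 2 further loci that match HK2 were also opposite in sign to the gene. Because the loci and the genes may share reads, these are not independent measurements.

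**Figure D5:**
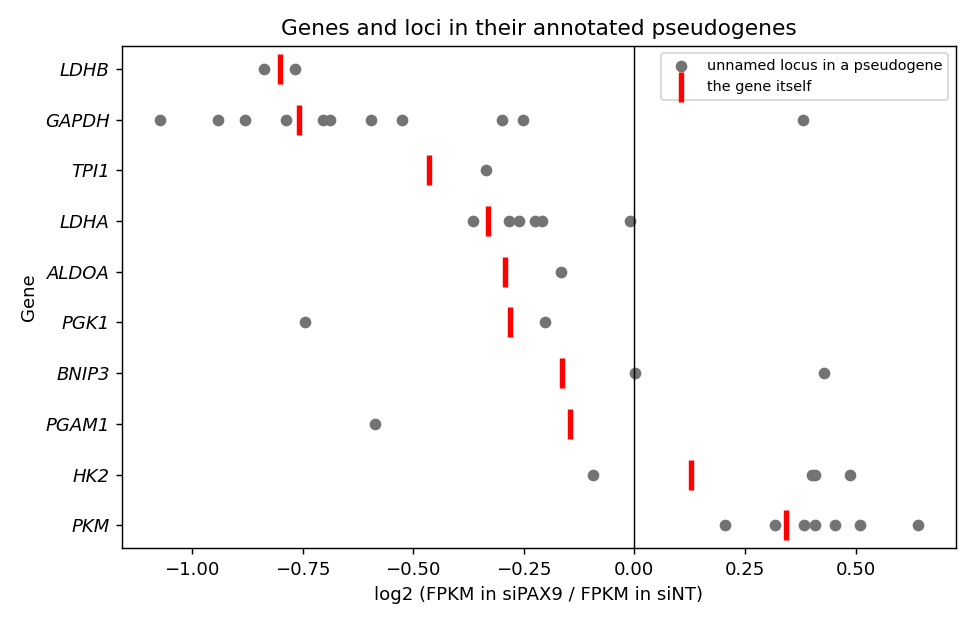
The log2 ratio of FPKM in siPAX9 over siNT for 10 genes (red bars) and for 37 unnamed loci in pseudogenes named after them (grey points). The loci of PKM lie to the right of 0 with the gene, those of LDHA and LDHB to the left with the genes, and those of BNIP3 at 0.00 and 0.43.

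Other genes in the table share the locus interval of 11 of the members, and for 7 members such a gene was expressed. SLC16A3 shares its interval with CSNK1D, at 50.01 FPKM in siNT and 52.6 FPKM in siPAX9, and ANKRD37 shares one with UFSP2, at 7.43 and 6.33 FPKM, which is above ANKRD37 itself. P4HA2 overlaps the antisense gene P4HA2-AS1, at 3.76 FPKM in siNT and 2.91 FPKM in siPAX9. Whether the counting used strand is not given in the sources used here, so reads in these overlaps may be assigned to either gene. CA9, ADM, ALDOC, PDK1, VEGFA, GAPDH and LDHB shared their interval with no other listed locus.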

How the data were processed

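Poly(A)+ RNA of 6 MCF10A samples, 3 siNT and 3 siPAX9, was sequenced as single-end reads. Per the labels and methods, the authors worked in Partek Flow, where Bowtie 2 placed the reads on hg19 (UCSC) and Cufflinks estimated transcript levels, and deposited 1 FPKM per locus and group. Bowtie 2 aligns reads without introns, so reads across exon junctions can align to intronless copies. The scaling between libraries is not given in the sources used here. The table holds no counts and no value per sample, so the fragments behind each FPKM, its replicate error and its precision are unknown here; the study's read totals per sample were not used. Its log2 fold changes, test statistics, p-values and q-values are the authors' comparison and were not used.

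Group FPKM were read with Python 3.11.15 and pandas 2.3.3. Each symbol took its row with the highest mean, locus starts were converted to count from 1, and no test was run. A mean of at least 1 FPKM was required, and the 2-fold threshold is the study's, without its q-value. The ratio and letter searches were tested on simulated data. Unnamed loci of 100 to 2000 bases with a mean of at least 1 FPKM were compared with 285 GENCODE transcripts of the members by blastn 2.17.0 (word size 28, at least 90% identity, at least 80% coverage), on GRCh37, which has the chromosome coordinates of hg19. Promoters came from RefSeq on GRCh38.p14. Proteins were not compared.

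The members and lists were chosen with earlier results of these data known. The genes named are all members, PAX9 and, per list, up to 5 expressed genes past 2-fold with the largest ratios. Markers, overlapping genes, TIGAR, HIF1A, EPAS1, ARNT and BNIP3's window were named after their values were seen. Of the other lists, 2 genes were written with an older symbol and found under the newer one. The value of 1 immune marker is not reported here.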

Additional observations from a re-analysis of the deposited data

How the results depend on the processing

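No paired analysis was possible because the values used are pooled over the 3 samples of each group, and for the same reason no sample could be left out in turn. The number of members at least 2-fold lower, 2 as reported, was 1 with 1 added to each FPKM, 1 after centring on the median and 1 at a fold of at least 4; ALDOC was the gene lost in each. It was 7 at a fold of at least 1.5, and 0 with a mean FPKM of at least 10 or of at least 100. The number at least 2-fold higher, 1 as reported, was 0 at a fold of at least 4 and 0 with a mean FPKM of at least 10 or 100. These minimums remove CA9, ALDOC and ADM, whose means are lower. With a mean FPKM of at least 100, a setting chosen after the data were seen, 8 of 10 members were below 0 (22 of 31 as reported) and the median log2 ratio was -0.39 for the members and for the glycolytic enzymes. Without a minimum FPKM the median of the other glycolytic isoenzymes, transporters and regulators was 0.31, against -0.00 as reported. The medians of all members and of the glycolytic enzymes moved by under 0.1 under the other settings. For the other pathway lists only the settings without a minimum FPKM, with 1 added and after centring were tried. Apart from the median named above, theirs also moved by under 0.1. Other medians, such as those of the regulatory kinases and the hypoxia-responsive members, were not recomputed. After centring or when 1 was added, 0 members changed sign. Each of the 33 members has 1 row with a single symbol, so summing FPKM over rows or using single-symbol rows could not change a value of theirs and says nothing of stability. Without replicate values a single FPKM has no known error, which limits the low genes most.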
